A study of Rattus norvegicus with 6 samples.

Results

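S100a8, S100a9, Mmp9 and Lcn2, 4 genes known as products of neutrophils and their precursors in the bone marrow, were followed in RNA sequencing libraries of rat bone. They were taken by Ensembl gene identifier (ENSRNOG00000011557, ENSRNOG00000011483, ENSRNOG00000017539 and ENSRNOG00000013973, in the order of the symbols above) and make up 4 of the 32883 genes in the deposited count table. The symbols came with the selection of the genes. The deposited table holds no gene names, and the RefSeq gene table used here carried no Ensembl identifiers, so the symbols were not contradicted but could not be checked. All 4 genes passed the filter on low counts, which left 14495 genes for testing.

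The study compared bone of 3 rats labelled as exercised with bone of 3 control rats labelled as having no treatment; all 6 carry the genotype label WT. Per the series title, the animals were adults and the exercise was treadmill running of moderate intensity. The cell type is labelled osteocyte (spelled oeteocyte), the cell enclosed in bone matrix, and the molecule is total RNA. The sources used here do not give age, sex, strain, bone site, length of training or any removal of marrow.

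Neutrophils are short-lived white blood cells that are produced in large numbers in the marrow. Their granules form in successive waves as the precursor cells mature, and the transcripts of most granule proteins are highest in these precursors. S100a8 and S100a9 encode the subunits of calprotectin, a calcium- and zinc-binding complex that is abundant in the neutrophil cytosol, not a granule protein in the strict sense, and is also found in monocytes. Lcn2 encodes neutrophil gelatinase-associated lipocalin, a protein of the specific granules that binds bacterial iron carriers. Mmp9 encodes gelatinase B, a matrix-degrading protease of the gelatinase granules. Mmp9 is also well known from osteoclasts, the bone-resorbing cells, and Lcn2 from osteoblasts of mice. No other gene of neutrophils, osteoclasts, osteocytes or any other cell type could be identified by name in the table, so neither the osteocyte label nor a marrow origin of the 4 genes was checked against defining markers.

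The libraries were of similar depth. The exercised libraries held 14276864 to 15660240 counts and the control libraries 14056743 to 18126584. The first principal component of log2 CPM (the count of a gene relative to the library total) over the 14491 other genes tested held 68.0% of their variance. Exercised replicates 1, 2 and 3 scored -6.09, 2.79 and 118 on it, and control replicates 1, 2 and 3 scored -41.2, 65.1 and -139. Exercised replicate 3 and control replicate 3 were the ends of this component, and control replicate 2 lay nearer to exercised replicate 3 than to any other library. The 10 most abundant genes took 16.6% of the counts in exercised replicate 3 and 17.4% in control replicate 2. They took 22.0 to 27.5% in the other 4 libraries, with the highest share in control replicate 3. None of the 4 genes followed here was among them in any library.

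The 4 genes together took from 1.04% of all counts in exercised replicate 3 to 0.00475% in control replicate 3, a 218-fold range within one tissue. The share was 0.141%, 0.172% and 1.04% in exercised replicates 1, 2 and 3, against 0.0676%, 0.478% and 0.00475% in control replicates 1, 2 and 3. Exercised replicate 3 thus spent 1 count in 96.4 on these genes, and control replicate 3 spent 1 in 21053. The Wilson 95% intervals, which cover counting error only, were 1.03 to 1.04% in exercised replicate 3 and 0.00444 to 0.00508% in control replicate 3. The difference between animals was therefore far beyond counting error. The second-highest share was that of a control, and both of the lowest shares were those of controls. In bulk tissue, fewer cells of a type and less RNA per cell cannot be told apart.

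**Figure D1:**
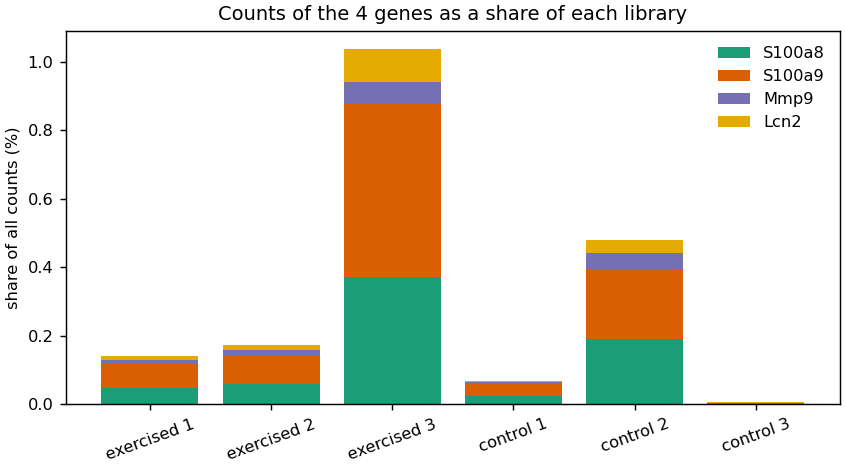
Share of all counts taken by S100a8, S100a9, Mmp9 and Lcn2, stacked, in percent of the library total (vertical axis, from 0), for each of the 3 exercised and 3 control libraries. Exercised replicate 3 (1.04%) and control replicate 2 (0.478%) hold the tallest bars, and the bar of control replicate 3 (0.00475%) is barely visible.

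S100a9, a calprotectin subunit, had 694, 858 and 5050.1 CPM in exercised replicates 1, 2 and 3, against 362, 2047.8 and 27.4 CPM in control replicates 1, 2 and 3. The highest value was 185-fold above the lowest, and the groups overlapped, since control replicate 2 lay above exercised replicates 1 and 2. By number of counts, S100a9 ranked 16 among all genes in exercised replicate 3, with 76200 counts, and 4222 in control replicate 3, with 496. It averaged 2201 ± 2469 CPM in exercised bone and 812 ± 1083 CPM in control bone (SD, n = 3 each). The standard deviation exceeded the mean in both groups.

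S100a8, the other calprotectin subunit, had 476, 582 and 3709.8 CPM in exercised replicates 1, 2 and 3, against 242, 1905 and 12.4 CPM in control replicates 1, 2 and 3. The libraries stood in the same order as for S100a9, and the range, 300-fold, was the widest of the 4 genes. Only 56 of the 14495 genes tested (0.386%) spanned a wider range on the log2 scale. S100a8 averaged 1589 ± 1837 CPM in exercised bone and 719.6 ± 1033 CPM in control bone (SD, n = 3 each). In the RefSeq gene table for assembly GRCr8, S100a8 and S100a9 are neighbours on chromosome 2, with 0 annotated genes between them.

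Lcn2, the siderophore-binding lipocalin, had 136, 133 and 958 CPM in exercised replicates 1, 2 and 3, against 28.8, 368 and 3.81 CPM in control replicates 1, 2 and 3. Its highest value was 252-fold above its lowest. Exercised replicates 1 and 2 stood in the opposite order to that of the other 3 genes, but their counting intervals overlapped, at 0.0130 to 0.0142% and 0.0127 to 0.0139% of counts. Lcn2 averaged 409 ± 475 CPM in exercised bone and 134 ± 204 CPM in control bone (SD, n = 3 each).

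Mmp9, the gelatinase, had 106, 148 and 658 CPM in exercised replicates 1, 2 and 3, against 43.6, 459 and 3.97 CPM in control replicates 1, 2 and 3. Its 166-fold range was the narrowest of the 4. On the log2 CPM scale it spanned 7.33 units, and 144 genes tested (0.993%) spanned more. It averaged 304 ± 307 CPM in exercised bone and 169 ± 252 CPM in control bone (SD, n = 3 each). Mmp9 and Lcn2 were lowest in control replicate 3, with 72 and 69 counts.

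**Figure D2:**
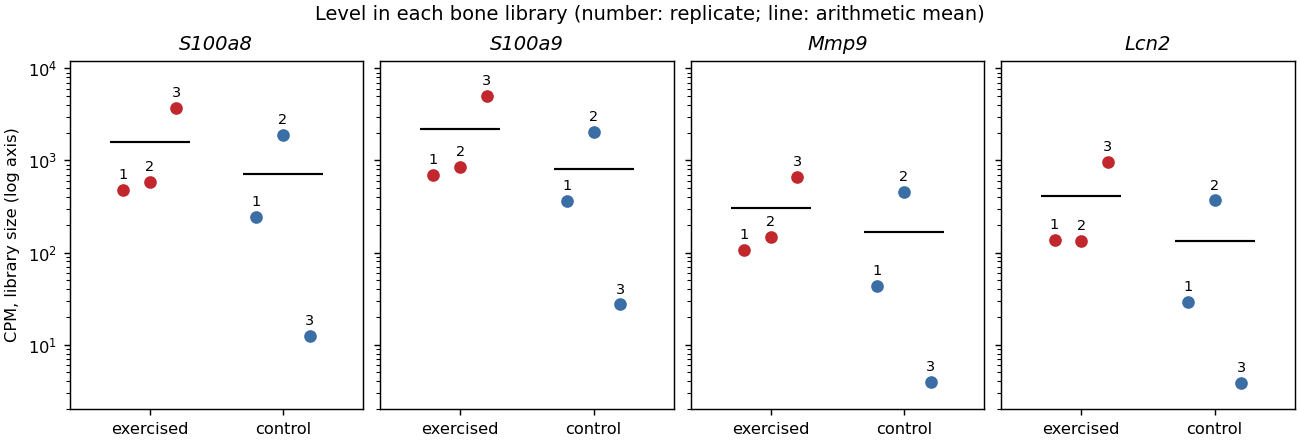
Level of each gene in CPM on a log axis (counts scaled to library size, not to gene length) in the exercised and control libraries. Points are libraries with their replicate number, and lines are arithmetic means. In every panel exercised replicate 3 is the highest point and control replicate 3 the lowest, and control replicate 2 lies above exercised replicates 1 and 2.

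The spread was wider among controls than among exercised animals. Within the 3 controls the highest library exceeded the lowest 154-fold for S100a8, 74.8-fold for S100a9, 115-fold for Mmp9 and 96.8-fold for Lcn2. Within the 3 exercised animals the corresponding ranges were 7.80-fold, 7.28-fold, 6.22-fold and 7.20-fold. For comparison, the median gene tested spanned 0.99 log2 units within exercised bone and 0.93 within control bone. The SD of log2 CPM was 1.40 to 1.64 over the 4 genes in exercised bone and 3.13 to 3.65 in control bone. Much of this spread came from single libraries. Without exercised replicate 3, the other 2 exercised libraries differed 1.22-fold for S100a8, 1.24-fold for S100a9, 1.40-fold for Mmp9 and 1.02-fold for Lcn2; without control replicate 3, the other 2 controls differed 7.88-fold, 5.66-fold, 10.5-fold and 12.8-fold. Whether the spread itself differed between the groups was not tested.

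Promoter sequences from RefSeq (build GRCr8) were on hand for S100a9 and Lcn2, 2 of the 4 genes, and are shown because both transcripts moved together over the libraries. Each line gives the 250 bases before the annotated start, 5′ to 3′ on the strand of the gene. Capitals mark matches to any of 4 motifs searched on both strands: the C/EBP motif TTGCNNAA, the PU.1 motif GAGGAA, the TATA box TATAAA and the motif of NF-kB. C/EBP proteins and PU.1 are transcription factors of the granulocyte lineage.
S100a9, chr2:178490623-178490872, minus strand: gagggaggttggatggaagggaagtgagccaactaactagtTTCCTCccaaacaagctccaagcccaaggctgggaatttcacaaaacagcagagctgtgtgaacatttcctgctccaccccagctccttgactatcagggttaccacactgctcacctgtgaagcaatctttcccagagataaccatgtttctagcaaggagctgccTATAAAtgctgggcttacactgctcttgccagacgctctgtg
Lcn2, chr3:36081781-36082030, minus strand: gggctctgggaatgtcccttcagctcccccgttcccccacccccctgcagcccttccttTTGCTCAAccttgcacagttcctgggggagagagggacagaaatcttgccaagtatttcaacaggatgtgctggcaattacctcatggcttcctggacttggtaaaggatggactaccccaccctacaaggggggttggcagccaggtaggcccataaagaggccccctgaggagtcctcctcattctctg

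The S100a9 window holds a TATA box 42 to 37 bases before the start and the PU.1 letters, on the opposite strand, 209 to 204 bases before it. The Lcn2 window holds the C/EBP letters 191 to 184 bases before the start and no match to the exact letters of the other 3 motifs. Variants of the motifs were not searched, so the absence of a match does not show the absence of a site. The 2 windows have no motif of this set in common, and no matches overlapped. Among 33469 RefSeq promoter windows of the same length, 12.9% hold the TATA letters, 23.3% the PU.1 letters, 9.22% the C/EBP letters and 0.314% the NF-kB letters. These matches describe the letters in the windows and do not show binding.

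The 4 genes moved together across the 6 animals. On log2 CPM, S100a8 and S100a9 correlated with Pearson's r = 0.998 and Spearman's rho = 1 over n = 6 libraries (two-sided exact permutation p = 0.00139 and 0.00278). Over all 6 pairs of the 4 genes, r ranged from 0.985 for S100a8 and Lcn2 to 0.998. Spearman's rho was 1 in the 3 pairs without Lcn2 and 0.943 in the 3 pairs with it. Each pair had an exact permutation p of 0.00139 or 0.00278 for r (Benjamini-Hochberg adjusted over the 6 pairs, 0.00278), and the exact p for rho was 0.00278 in the pairs without Lcn2 and 0.0167 in those with it. The smallest p that 6 libraries allow is 0.00139 for r. Among 9284 other genes averaging at least 10 CPM, the median absolute r with the mean standardized log2 CPM of the 4 genes was 0.738. Their r with that mean was above 0.9 in 2041 (22.0%) and above 0.99 in 222 (2.39%). The same order of the 6 libraries as for S100a9, and so the same rho of 1 with it, was found in 1032 (11.1%). The p for rho is therefore not particular to the 4 genes. No permutation p for r was computed for the other genes.

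The covariation was also present without the 2 extreme libraries. Without control replicate 3 and exercised replicate 3, the libraries farthest from the median, r over the remaining 4 was 0.945 to 1.00 in the 6 pairs. On deviations from the group means, which remove any difference between exercised and control bone, r was 0.986 to 0.999. The Pearson and Spearman values describe libraries whose genes share depth and scaling.

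**Figure D3:**
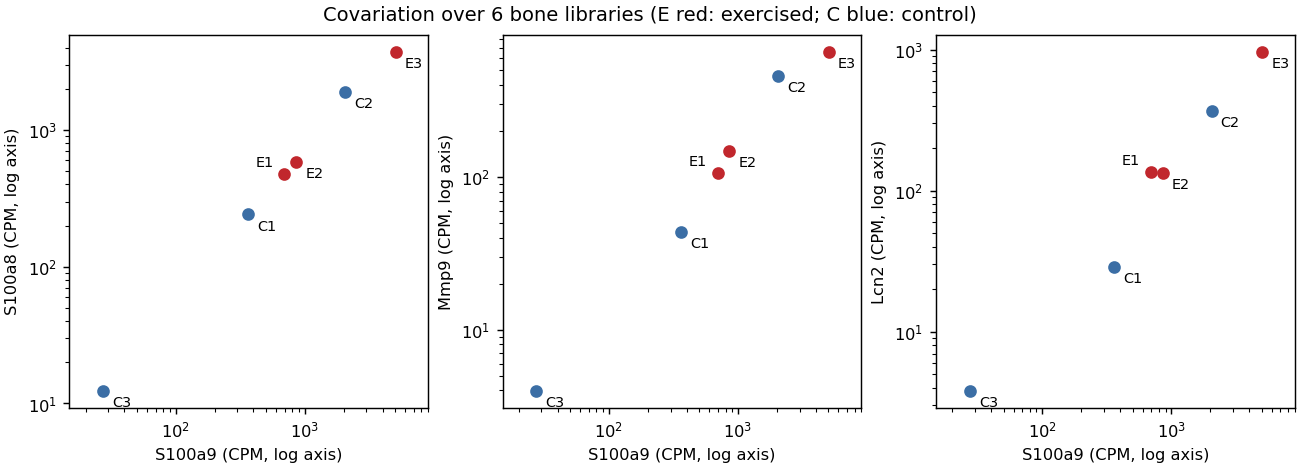
S100a8, Mmp9 and Lcn2 (vertical axes) against S100a9 (horizontal axis), in CPM on log axes, for the 3 exercised libraries (E, red) and the 3 control libraries (C, blue). The points lie along one line, with exercised replicate 3 at the upper right, control replicate 3 at the lower left and both groups intermixed between them.

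Ratios of counts between the genes varied far less than the genes themselves, but by more than counting error. S100a8 had 0.685, 0.678 and 0.735 counts per S100a9 count in exercised replicates 1, 2 and 3, against 0.669, 0.930 and 0.452 in control replicates 1, 2 and 3. This ratio spanned 2.06-fold while each gene spanned over 100-fold. It was highest in control replicate 2 (95% counting interval 0.915 to 0.946) and lowest in control replicate 3 (0.386 to 0.529), and neither interval reached those of the other 4 libraries.

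Mmp9 had 0.152, 0.173 and 0.130 counts per S100a9 count in exercised replicates 1, 2 and 3, against 0.121, 0.224 and 0.145 in control replicates 1, 2 and 3. This was the second-narrowest of the 6 ratios, at 1.86-fold, after Mmp9 to S100a8 at 1.81-fold. Lcn2 had 0.196, 0.155 and 0.19 counts per S100a9 count in exercised replicates 1, 2 and 3, against 0.0798, 0.180 and 0.139 in control replicates 1, 2 and 3. Control replicate 1 was the low library for Lcn2 relative to each of the other 3 genes. The widest ratio was Lcn2 to S100a8, at 2.58-fold. A ratio within a library does not depend on how the library is scaled, and none of the 3 ratios to S100a9 separated exercised from control bone.

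The order of the libraries by S100a8, S100a9 or Mmp9 was also their order along the main spread of all other genes. S100a8, S100a9 and Mmp9 had Spearman's rho = 1 with the score on the first principal component computed without the 4 genes (n = 6, two-sided exact permutation p = 0.00278), and Lcn2 had rho = 0.943 (exact permutation p = 0.0167). Pearson's r was 0.983 for S100a8, 0.987 for S100a9, 0.982 for Mmp9 and 0.987 for Lcn2 (exact permutation p = 0.00139, and 0.00278 for Lcn2; adjusted over the 4 relations, 0.00185 and 0.00278). Without the 2 libraries farthest from the median of the component, control replicate 3 and exercised replicate 3, r over the other 4 was 1.00, 0.995, 0.993 and 0.944 for S100a8, S100a9, Mmp9 and Lcn2.

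Such a relation was common among the genes of these libraries. Of 9284 other genes that averaged at least 10 CPM, 736 (7.93%) had an r with the component at least as high as the lowest of the 4, 0.982. An r above 0.9 was found in 2645 genes and below -0.9 in 250. The 4 genes therefore lay on the axis along which many transcripts of unknown name differed between animals. Whether the share of marrow in the bone samples set this axis was not tested.

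**Figure D4:**
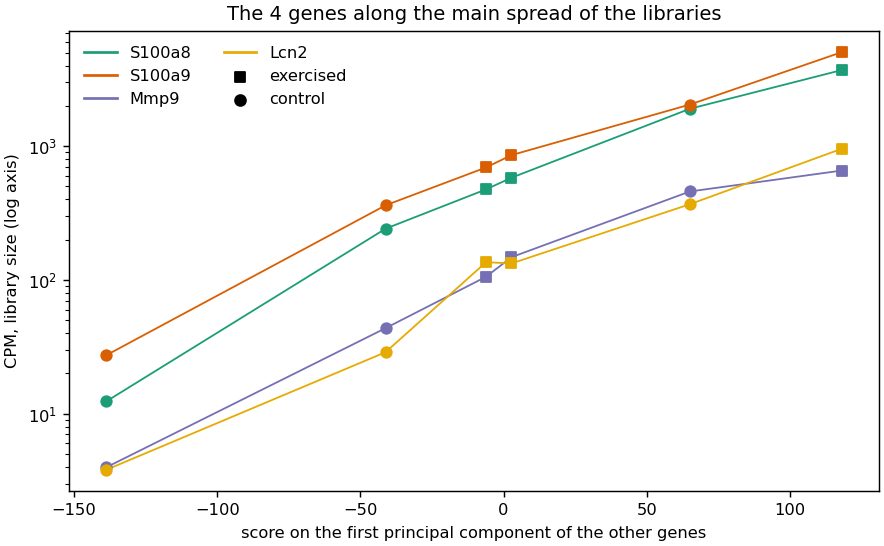
Level of the 4 genes in CPM (log axis, not scaled to gene length) against the score of each library on the first principal component of the 14491 other genes tested. Squares are exercised and circles control libraries. All 4 lines are highest at exercised replicate 3 (score 118) and lowest at control replicate 3 (score -139), and they climb with the score apart from the small step between exercised replicates 1 and 2 for Lcn2.

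Many other genes followed the same course. Over the 6 libraries, 222 of these 9284 genes (2.39%) had r above 0.99 with the mean standardized log2 CPM of the 4 genes, and 2041 (22.0%) had r above 0.9. Of the 222 genes, 202 also spanned more than 16-fold between their highest and lowest library. The same order of the 6 libraries as for S100a9 was found in 1032 genes (11.1%). The reverse order was found in 58 genes (0.625%), and r below -0.9 in 99 (1.07%).

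The genes most like the 4 were known only by identifier. The closest, ENSRNOG00000011716 (r = 1.00 at 2 decimals), had 12.4, 13.9 and 76.5 CPM in exercised replicates 1, 2 and 3, against 5.10, 41.6 and 0.331 CPM in control replicates 1, 2 and 3. The next, ENSRNOG00000020845, had 38.1, 47.4 and 218 CPM in exercised replicates 1, 2 and 3, against 18.1, 109 and 2.21 CPM in control replicates 1, 2 and 3. Both spanned the libraries in the same order as S100a8, S100a9 and Mmp9. The genes least like them, ENSRNOG00000037659 (r = -0.98) and ENSRNOG00000014616 (r = -0.98), ran the other way but within 1.92-fold and 1.93-fold ranges.

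None of the 4 genes differed between exercised and control bone beyond the spread between animals. In the quasi-likelihood test of edgeR, adjusted by Benjamini-Hochberg over 14495 genes, 0 of the 4 had an adjusted p under 0.05, where the background was 0% of all genes. At an unadjusted p under 0.05 the test called 0 of the 4 and 1.7% of all genes. DESeq2's Wald test, which gave no p for Lcn2, called 0 of the other 3 and 0.0069% of all genes. In all 4 genes the values of the groups overlapped, whereas they did not overlap in 6.44% of the genes tested.

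The estimates lay above 0 with wide errors. The log2 fold difference of exercised over control bone was 1.69 for Lcn2 (SE 1.46, adjusted p = 0.889), 1.49 for S100a9 (SE 1.35, adjusted p = 0.889), 1.21 for S100a8 (SE 1.49, adjusted p = 0.893) and 0.94 for Mmp9 (SE 1.38, adjusted p = 0.902), all by edgeR. The 95% interval for Lcn2 ran from a fold of 0.284 to 36.7 and that for Mmp9 from 0.191 to 19.2, so neither a several-fold decrease nor a several-fold increase lay outside them. The median over the 4 genes was 1.35, against 0.01 over all genes tested. As the 4 genes moved as one over the libraries, they do not count as 4 separate observations.

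The spread of these genes was among the widest in the table. The biological coefficient of variation, the between-animal variation that edgeR estimates, was 1.11 for S100a8, 1.02 for S100a9, 1.06 for Mmp9 and 1.09 for Lcn2, against a median of 0.419 over the genes tested. The share of genes with a higher value was 1.72% for S100a8 and at most 3.17%, for S100a9. A two-sided exact permutation test on mean log2 CPM gave p = 0.4 for S100a8, S100a9 and Mmp9 and p = 0.3 for Lcn2 (n = 3 each; the smallest p that 3 against 3 allows is 0.1).

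Leaving out single animals changed the size of the difference in all 4 genes and its direction in S100a8 and Mmp9 only. S100a9 and Lcn2 stayed above 0 whichever single library was left out. Without exercised replicate 3 the log2 fold differences were -0.18 for S100a8, 0.18 for S100a9, -0.14 for Mmp9 and 0.29 for Lcn2. Without control replicate 2, which had the highest levels of the controls, they were 3.39, 3.25, 3.43 and 4.37, and 2 of the 4 genes, Mmp9 and Lcn2, had an unadjusted p under 0.05 by edgeR, against 8.93% of all genes in that fit; the adjusted p was 0.537 for all 4. Without control replicate 3 they were 0.63, 0.92, 0.37 and 1.12, and without control replicate 1 they were 0.83, 1.19, 0.51 and 1.24. Leaving out both control replicate 2 and exercised replicate 3, the highest library of each group, gave 2.01, 1.95, 2.36 and 2.98, with 1 of the 4 genes, Lcn2, at an unadjusted p under 0.05 by edgeR, against 7.84% of all genes (adjusted p = 0.63). Leaving out both extreme libraries, control replicate 3 and exercised replicate 3, gave -0.75, -0.38, -0.71 and -0.27.

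With the first component as a covariate in the edgeR fit, the log2 fold differences were -0.00095 for S100a8 (SE 0.54), 0.20 for S100a9 (SE 0.43), 0.07 for Mmp9 (SE 0.46) and 0.58 for Lcn2 (SE 0.37), with adjusted p from 0.942 to 1. For this fit the component was computed on TMM-scaled log2 CPM, not on the library-size scale of the scores given above. It is nearly collinear with the 4 genes, so the fit takes out any difference that runs along it.

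**Figure D5:**
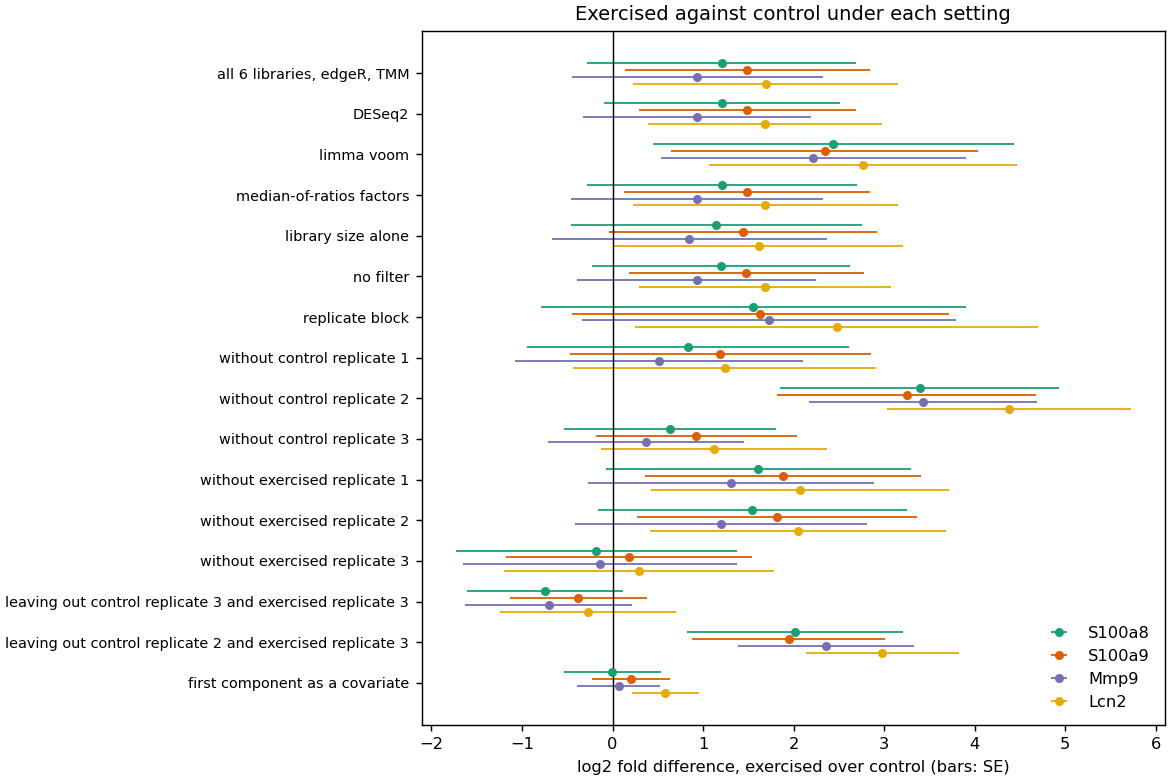
Log2 fold difference of exercised over control bone (horizontal axis; positive means higher in exercised bone) for S100a8, S100a9, Mmp9 and Lcn2 under each setting, with bars of 1 SE. The estimates lie between 0.94 and 1.69 in the edgeR fit with TMM scaling and all 6 libraries (top row), between 3.25 and 4.37 without control replicate 2, and below 0 without control replicate 3 and exercised replicate 3.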

How the data were processed

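RNA from bone of 3 exercised and 3 control rats was sequenced. Per the labels' protocols, total RNA was isolated on columns and libraries followed Illumina's standard procedure. The submitters' processing notes list edgeR, StringTie, HISAT2 2.1.0, fastp 0.19.5 and CASAVA 1.8, with no role or order. The notes name the builds hg38 and mm10, whereas all 32883 gene identifiers carry the rat prefix; the sources used here give no rat build, annotation or strand setting. The deposited columns are FPKM per the file headers, but all values are whole and the column totals (14056743 to 18126584) differ, so the deposited values were treated as raw counts per gene. As FPKM, such totals would imply targets averaging 71.1 nt or less.

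CPM values are counts over the library total, and log2 CPM used a prior count of 2. TMM factors, which rescale library totals in the edgeR fit, ran from 0.794 in control replicate 3 to 1.21 in control replicate 2. Exercised replicate 3 had 1.17. On the TMM scale the 4 genes together had 8874 CPM in exercised replicate 3 and 59.8 CPM in control replicate 3. By library total they had 10375 and 47.5 CPM, so their ranges over the 6 libraries are wider here than on the TMM scale. The comparison was fitted over all genes with edgeR 4.0.16 (R 4.3.3; quasi-likelihood test, TMM scaling, filterByExpr with a minimum count of 10 and total of 15, adjusted p threshold 0.05, no covariate). SE is the absolute log2 fold difference over the square root of F. The fits were also run on simulated counts with known differences and less spread between libraries than the real ones. That run does not show how well the fits recover differences at the spread seen here. Alternatives were DESeq2 1.42.0, limma 3.58.1 voom, other scalings, no filter, a replicate block and left-out libraries; the first-component covariate and the joint removal of control replicate 2 and exercised replicate 3 were chosen after seeing the data. Correlations used exact permutations. Named genes were the 4 selected and the 2 most and 2 least like them among genes averaging 10 CPM or more. The planned lists of cell type and pathway genes could not be used, since 0 identifiers matched a name. The genes and lists were chosen with earlier results of these data known. Per the design text the libraries come from separate rats, so p-values rest on the spread between animals, with any technical spread included.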

Additional observations from a re-analysis of the deposited data

How the results depend on the processing

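The number of the 4 genes past the threshold was 0 in the main edgeR fit and under all 16 alternatives tried, an unadjusted threshold with all 6 libraries among them. DESeq2 gave no p for Lcn2, so that alternative does not cover Lcn2. Over all genes the number past the threshold was 0 except with DESeq2 (1 gene) and at an unadjusted p under 0.05 (247 genes). Leaving out 1 library at a time, the log2 fold difference of exercised over control bone ran from -0.18 to 3.39 for S100a8, 0.18 to 3.25 for S100a9, -0.14 to 3.43 for Mmp9 and 0.29 to 4.37 for Lcn2, and that of the summed share from -0.23 to 3.64 around 1.30. Without control replicate 3 and exercised replicate 3 all 4 genes turned, to -0.75, -0.38, -0.71 and -0.27, and S100a8 was at -0.00095 with the first component as a covariate. Limma voom, which averages log values and not counts, gave 2.44, 2.34, 2.22 and 2.76. Library size alone, which shifts the median of all genes to 0.09, gave 1.14, 1.44, 0.85 and 1.61. With the replicate block the values were 1.55, 1.63, 1.73 and 2.48, with 0 of the 4 genes and 0 of all genes called. Same-numbered libraries deviated from their group means with r = 0.32, -0.41 and -0.49. Differently numbered libraries gave r from -0.52 to 0.59. With 3 libraries per group these values cannot tell whether the replicate numbers mark pairs. The 6 correlations between the genes and the 4 with the first component kept their sign in each alternative run, and Pearson's r kept its side of the threshold where a permutation test was made. Spearman's rho did not in the 3 pairs with Lcn2: it was 0.9 over 5 libraries (exact permutation p = 0.0833) without exercised replicate 3 and without control replicate 1, 2 or 3. Depth is not the limit for S100a8 and S100a9, which had at least 224 counts in every library; Mmp9 and Lcn2 rest on 72 and 69 counts in control replicate 3.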
